A study of Homo sapiens with 6 samples.

Results

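The miR-548 family was examined in small RNA libraries from exosomes, the small vesicles that cells release, of HCT116, a human colorectal cancer line. Members were all entries of the deposited count tables whose name starts with hsa-miR-548, whatever the letter, copy or arm, which gave 76 of 2575 mature miRNA entries. The design compared 2 groups of 3 libraries. In the group titled untreated, cells received bacterial medium without bacteria. In the group titled ETBF 6 h, cells shared their culture for 6 h with a toxin-producing gut anaerobe, enterotoxigenic Bacteroides fragilis, at a multiplicity of infection of 500. All cells were HCT116 at passages 16 to 19 and exosomes were collected by centrifugation of the conditioned medium. The group named in the deposited file names is the opposite of the one in the sample titles in 6 of 6 libraries. Groups here follow the titles, and every direction below is reversed if the file names are right.

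Mature miRNAs are cut from hairpin precursors and pair with target mRNAs mainly through the seed, bases 2 to 8 from the 5′ end. The miR-548 genes derive from MADE1 elements, short palindromic copies of a mariner DNA transposon. A transcript read across such a palindrome folds into a hairpin, and the elements are spread over the genome, so the family is large, found in primates and made of closely similar sequences. Some mature miRNAs of this kind come from more than one locus, and reads from similar members are hard to assign to one of them.

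One sequence carried nearly all of the family's signal, miR-548o-3p, and it is shown first, seeds in capitals, with the 4 detected members that share the longest runs of bases with it and with miR-548u, the second most abundant member. Sequences are RefSeq's, on GRCh38.p14, in which 50 of the 76 members were matched by name.
miR-548o-3p: cCAAAACUgcaguuacuuuugc
miR-548ah-3p: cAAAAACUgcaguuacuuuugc
miR-548am-3p: cAAAAACUgcaguuacuuuugu
miR-548av-3p: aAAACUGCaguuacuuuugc
miR-548s: aUGGCCAAaacugcaguuauuuu
miR-548u: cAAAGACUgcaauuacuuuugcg
Counted from the 5′ end of miR-548o-3p, miR-548ah-3p differs from it by C2A alone and miR-548am-3p by C2A and C22U. The C2A change lies in the seed. miR-548av-3p is contained whole in miR-548o-3p, with a run of 20 shared bases, but begins further in, so its seed is another one. miR-548s shares a run of 15 bases and miR-548u one of 10.

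The seed of miR-548o-3p, CAAAACU, belonged to no other of the 50 matched members. Of the 2370 mature sequences in the RefSeq table, miR-1323 was the only other with that seed, and it held 0 counts in the 6 libraries. The seed AAAAACU was shared by 6 matched members, of which 3 were detected (miR-548ah-3p, miR-548am-3p and miR-548j-3p), with 8 counts in all. The seed AAAGUAA was the most frequent with 10 members, of which only miR-548ap-5p was detected, with 1 count. The 50 sequences fell into 28 seeds, were 18 to 23 bases long and had a median A and U content of 65.1% (45.5 to 84.2%). The run of 19 bases AAAACUGCAGUUACUUUUG, chosen after the sequences had been seen and searched on the mature strand only, was held by 4 of the 2370 mature sequences (0.169%): miR-548o-3p, miR-548ah-3p, miR-548am-3p and miR-548av-3p.

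miR-548o-3p has 2 loci in the RefSeq table. MIR548O gives it from chr7:102405748-102405769 on the minus strand, and MIR548O2 from chr20:38516607-38516628 on the plus strand, both on GRCh38.p14, which is not the submitters' build. In GENCODE release 29 the MIR548O2 sequence lies in an intron of RALGAPB, a subunit gene of a Ral GTPase-activating complex, on the same strand. The MIR548O sequence lies in an intron of PRKRIP1 on the opposite strand. The mature sequence is the same at both loci, so the counts do not say which one was transcribed. Among all 46 matched miR-548 loci, on 21 chromosomes, 30 lay within a gene on the same strand, 5 only within a gene on the opposite strand and 11 in no annotated gene, and none of the 30 overlapped an exon of its host. Of the 11 loci of detected members, 9 lay within a gene on the same strand, among them MIR548U in PRIM2, a DNA primase subunit gene, and MIR548K in PPFIA1.

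Depth was low, at 200207 to 417321 counts per library, and 717 of 2575 entries (27.8%) had a count in any library. Markers of colon epithelium, the labelled origin of the line, were all detected (7 of 7), with summed levels of 26755 to 27907 CPM (counts per 1000000 counts of the library, scaled by TMM) in the untreated-titled libraries and 22647 to 25662 CPM in the ETBF-titled libraries. Markers of other cell types were present as well, with 4 of 4 muscle markers at 19536 to 20919 and 15397 to 18775 CPM, the 1 liver marker at 5420 to 6556 and 4804 to 5062 CPM, and 5 of 5 blood-cell markers at 487 to 572 and 392 to 576 CPM. The 1 endothelial marker stood at 793 to 944 and 751 to 858 CPM, and 4 of 4 fibroblast and smooth muscle markers at 5399 to 6261 and 4696 to 5351 CPM. No marker was at 0. The part of these cell types in the miR-548 values was not tested. In these bulk preparations, more vesicles that carry a miRNA and more copies per vesicle cannot be told apart.

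Of the 76 members, 13 (17.1%) had at least 1 count in any library and 63 had none. Detection was thin: 4 members reached 3 counts in any library, 1 reached 10, and 4 of the 13 were seen in 1 library only. miR-548o-3p was the 1 member found in all 6 libraries. The untreated-titled libraries held 5, 7 and 4 members and the ETBF-titled libraries 5, 6 and 9, so the numbers overlapped, and the largest came from the library with the most counts. Over each group, 8 members were detected in the titled untreated and 12 in the ETBF-titled libraries. A count of 0 in a library allows up to 3 counts, or 8.29 to 14.6 CPM depending on the library. Members at 0 were therefore not detected at this depth, and absence cannot be told from a level under the floor. Floors and intervals here cover counting error only.

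The 6 libraries held 773 miR-548 counts, of which miR-548o-3p took 701 (90.7%). The family had 49, 82 and 88 counts in the untreated-titled libraries and 150, 124 and 280 in the ETBF-titled libraries. As a share of each library these were 0.0245% (95% Clopper-Pearson interval 0.0181 to 0.0324), 0.0222% (0.0177 to 0.0276) and 0.0300% (0.0241 to 0.0370) in the untreated-titled libraries. In the ETBF-titled libraries they were 0.0599% (0.0507 to 0.0703), 0.0559% (0.0465 to 0.0666) and 0.0671% (0.0595 to 0.0754). All 3 ETBF-titled libraries lay above all 3 titled untreated ones, with no overlap of the intervals between groups. On the TMM scale, groups did not overlap in 39% of the 195 tested entries. The shares are of all counts, entries that overlap structural RNAs included. Those took 16.1 to 28.3% of the untreated-titled and 0.531 to 0.927% of the ETBF-titled libraries, which lowers the untreated-titled shares more. Within the family, miR-548o-3p took 87.8% (75.2 to 95.4), 82.9% (73.0 to 90.3) and 93.2% (85.8 to 97.5) of the titled untreated counts and 89.3% (83.3 to 93.8), 88.7% (81.8 to 93.7) and 94.3% (90.9 to 96.7) of the titled ETBF counts. That share overlapped between the groups, so 1 sequence was dominant in both.

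**Figure D1:**
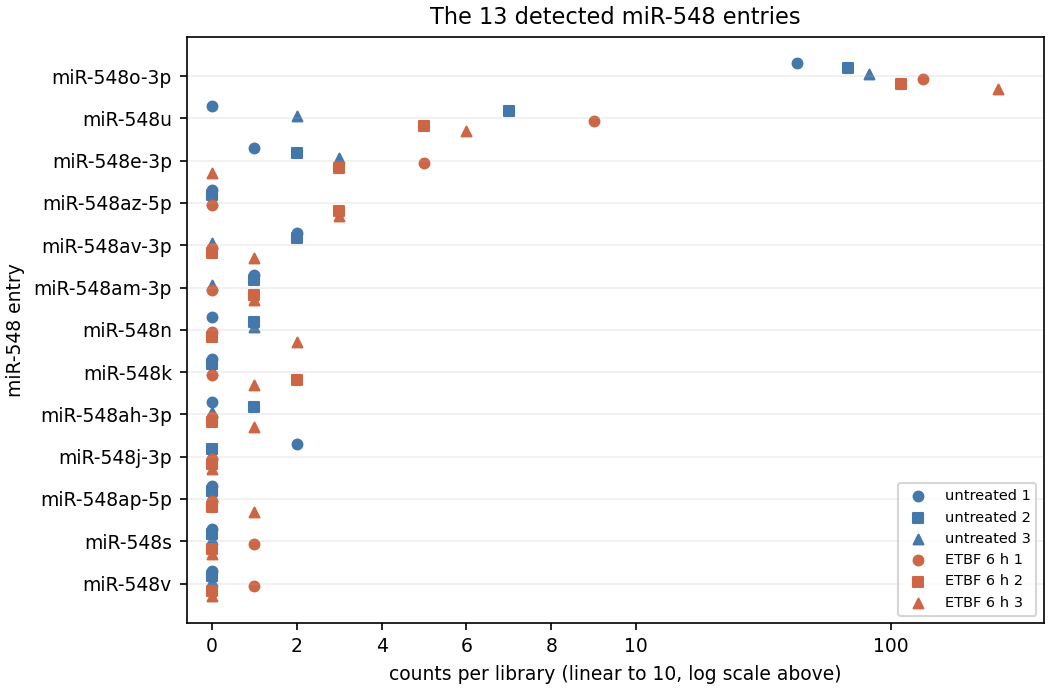
Counts per library (horizontal axis, linear to 10 and logarithmic above) of the 13 detected miR-548 entries (vertical axis), with 1 marker for each library and colour by titled group. miR-548o-3p lies at 43 to 264 counts, apart from the other 12 entries, none of which passes 9 counts in a library.

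miR-548o-3p held 43, 68 and 82 counts in the untreated-titled libraries and 134, 110 and 264 in the ETBF-titled libraries. Scaled by TMM, these were 209, 188 and 263 CPM in the untreated-titled libraries and 451, 496 and 818 CPM in the ETBF-titled libraries. Each titled ETBF library was above each titled untreated one, and titled ETBF replicate 3 stood above the other two of its group, with a Poisson interval of 722 to 922 CPM against 408 to 598 CPM for replicate 2. The group levels were 219.9 ± 38.5 CPM and 588.4 ± 199.8 CPM (SD, n = 3). The log2 fold change was 1.43 (SE 0.25), or 2.70-fold higher in the ETBF-titled libraries, with an adjusted p of 0.00578 over all 195 tested entries by edgeR's quasi-likelihood test with Benjamini-Hochberg adjustment. By the file names the same difference would be a fall after ETBF.

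miR-548o-3p was the 1 miR-548 member with enough counts to be tested, and it passed. Over all 195 tested entries, 28 (14.4%) passed the threshold of 0.05, namely 21 (10.8%) with higher and 7 (3.59%) with lower levels in the ETBF-titled libraries. The split was 36 and 6 with upper-quartile scaling and 30 and 4 with entries overlapping structural RNAs left out, and 38 and 21 without titled ETBF replicate 1. Groups of libraries did not overlap in 39% of tested entries, miR-548o-3p among them. Its log2 fold change was the ninth highest, counted from the most positive, and it ranked 89 of 195 by mean level. By raw count it stood at rank 107, 109 and 101 among all entries of the untreated-titled libraries and at 87, 80 and 71 of the ETBF-titled libraries. The median log2 fold change of all tested entries was -0.03.

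**Figure D2:**
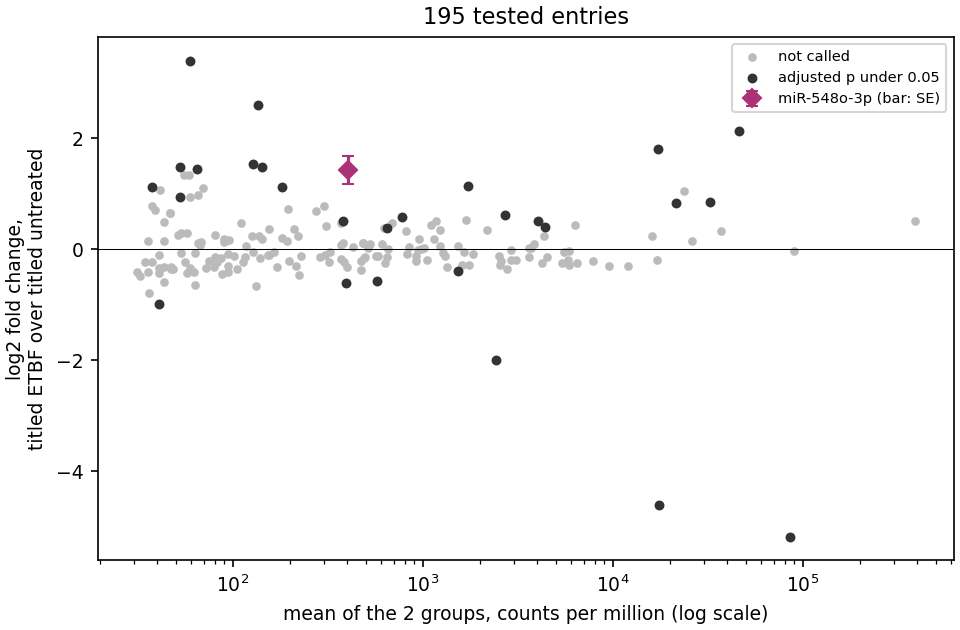
Log2 fold change of titled ETBF over titled untreated (vertical axis) against the mean level of both groups in CPM (horizontal axis, logarithmic) for the 195 tested entries, with the 28 that passed in black. miR-548o-3p, the diamond with its SE as a bar, lies at 1.43 in the middle of the range of levels.

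The composition of the libraries also moved with the group. Entries that overlap structural RNAs (miR-1246, miR-6087 and miR-7641) together took 16.1 to 28.3% of the counts in the untreated-titled libraries and 0.531 to 0.927% in the ETBF-titled libraries. With these entries left out before scaling, the log2 fold change of miR-548o-3p was 1.48 (SE 0.24, edgeR adjusted p = 0.00268), as large as with them. Without titled ETBF replicate 3, the library with the highest level, it was 1.10 (SE 0.17, adjusted p = 0.00728).

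**Figure D3:**
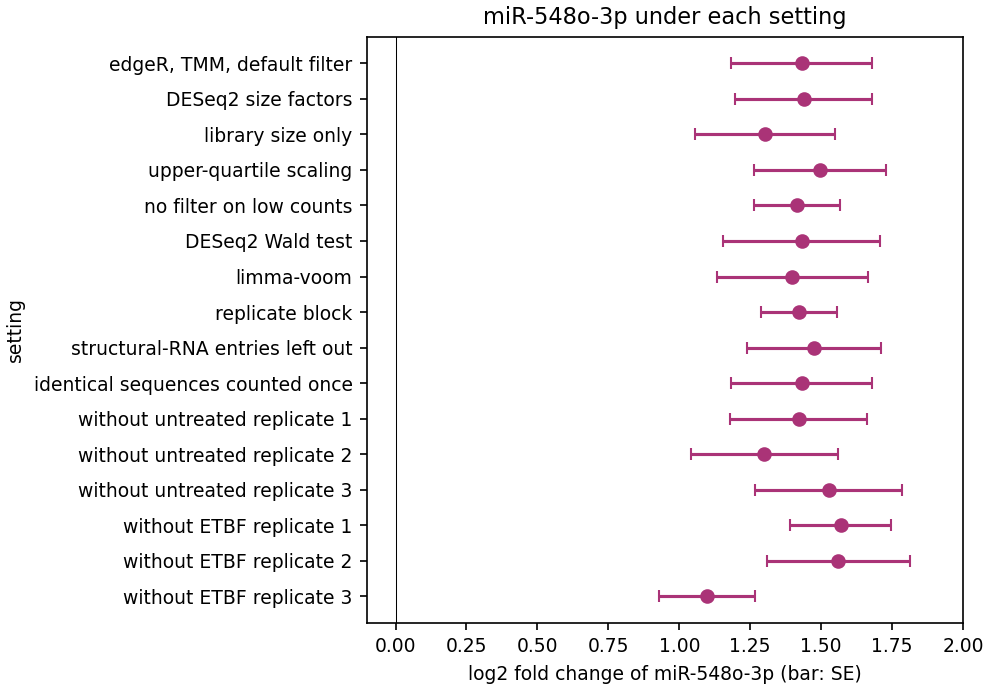
Log2 fold change of miR-548o-3p (horizontal axis, bars are SE) under each normalisation, filter and test and with each library left out in turn (vertical axis). The values run from 1.10, without titled ETBF replicate 3, to 1.57, without titled ETBF replicate 1, and none reaches 0.

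Because the sequence has 2 loci, the way reads with several positions were counted bears on its level. miR-199a-3p, which also has 2 loci, held 2.00 times the counts of its sequence twin miR-199b-3p in each library, as counting each read once per locus would give. The counts of miR-548o-3p were even in 5 of 6 libraries and odd in titled untreated replicate 1, at 43. Among the 23 entries with 2 loci and at least 10 counts in each library, miR-548o-3p included, 61.6% of 138 counts were even, against 50.2% of 654 counts for the 109 entries with 1 locus. Single entries with 2 loci ran from 0 to 6 even counts over the 6 libraries. The pooled share therefore does not hold for each of them. If some reads of miR-548o-3p were counted at both loci, its level is inflated and the counting intervals above are too narrow. Whether the inflation would be alike in both groups is not known. That double counting was not tested for this sequence. Among the 50 members with a sequence in the table, miR-548aj-5p, miR-548g-5p and miR-548x-5p had the same mature sequence, and all 3 were at 0; the other members were not compared.

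The members that share the longest runs of bases with miR-548o-3p had few counts, and which member a read came from was not tested. miR-548av-3p, miR-548am-3p and miR-548ah-3p, which share a run of 19 or more bases with it, held 11 counts in all against its 701. miR-548av-3p, whose letters lie whole within miR-548o-3p, held 2, 2 and 0 counts in the untreated-titled libraries and 0, 0 and 1 in the ETBF-titled libraries. miR-548am-3p held 1, 1 and 0 and then 0, 1 and 1 counts. miR-548ah-3p, 1 base away, held 1 count in titled untreated replicate 2 and 1 in titled ETBF replicate 3. miR-548p shares a run of 17 bases and had 0. A run ends at the first mismatch, so it is not the only measure of nearness. miR-548aq-3p, of the same length as miR-548o-3p, differs by C2A and G12A, with a run of 10 bases and 0 counts. miR-548u, with a run of 10 bases and 29 counts, is longer, and its substitutions were not counted. Over the matched members other than miR-548o-3p, the median shared run was 10 bases in the 9 detected and 6 in the 40 undetected, a description of sequences that share one ancestor.

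**Figure D4:**
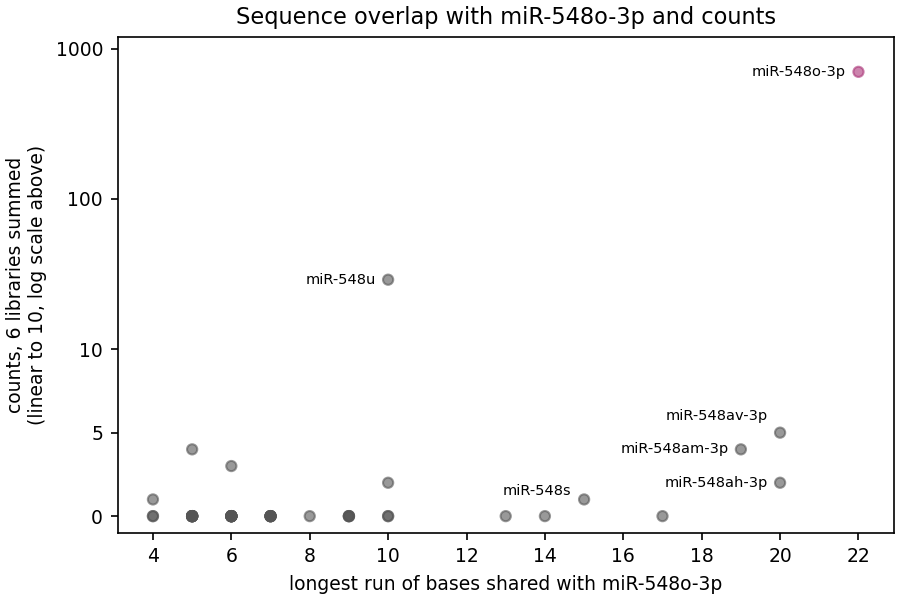
Counts summed over 6 libraries (vertical axis, linear to 10 and logarithmic above) against the longest run of bases shared with miR-548o-3p (horizontal axis) for the 50 members with a sequence in the table, 1 point each. miR-548o-3p lies alone at 701 counts, and the 3 members that share 19 or 20 bases with it hold 2 to 5.

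The arms were unequal. Entries named as 3′ arms (25 members) held 728 counts, those named as 5′ arms (25 members) held 7, and the 26 without an arm in their name held 38. Of the 728, 701 were from miR-548o-3p, so the size of this difference rests mostly on 1 sequence. Of the 25 member names with an entry for each arm, some of which cover several loci, 6 had counts for the 3′ arm alone, 2 for the 5′ arm alone, none for both and 17 for neither. miR-548o-5p, which carries the name of the opposite arm, had 0 counts against 701 for miR-548o-3p, whose counts cannot be placed at either of its loci.

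The remaining members were too sparse to test with the default filter. miR-548u, the second most abundant, held 0, 7 and 2 counts in the untreated-titled libraries and 9, 5 and 6 in the ETBF-titled libraries. Its groups overlapped, with 8.58 ± 9.85 and 23.8 ± 5.96 CPM (SD, n = 3), the first of which is near the floor. Fitted with no filter on low counts, its log2 fold change was 1.20 (SE 0.65, edgeR adjusted p = 0.393), which did not pass.

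miR-548e-3p held 1, 2 and 3 counts in the untreated-titled libraries and 5, 3 and 0 in the ETBF-titled libraries, again overlapping. Its log2 fold change with no filter was 0.48 (SE 0.97, edgeR adjusted p = 0.802). miR-548az-5p was at 0 in the 3 untreated-titled libraries and had 0, 3 and 3 counts in the ETBF-titled libraries. These counts are at the floor, so no fold is given. With no filter, the edgeR adjusted p of miR-548az-5p was 0.223, and miR-548o-3p was the only 1 of the 13 detected members to pass. In that setting 7.11% of 717 entries passed.

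miR-548n had 0, 1 and 1 counts in the titled untreated and 0, 0 and 2 in the ETBF-titled libraries. miR-548k had 2 counts in titled ETBF replicate 2 and 1 in replicate 3, and miR-548j-3p had 2 in titled untreated replicate 1. miR-548ap-5p, miR-548s and miR-548v had 1 count each, all in ETBF-titled libraries. All of these lie at or under 3 counts in every library and show no direction.

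Summed over the family, the level was 248.9 ± 29.1 CPM in the titled untreated and 643.9 ± 195.3 CPM in the ETBF-titled libraries (SD, n = 3), a difference of 1.34 between the mean log2 levels. Without miR-548o-3p, the other 75 entries together held 6, 14 and 6 counts in the untreated-titled libraries and 16, 14 and 16 in the ETBF-titled libraries. Their summed level was 29.2, 38.7 and 19.2 CPM in the titled untreated and 53.9, 63.2 and 49.6 CPM in the ETBF-titled libraries. The groups did not overlap on this scale, although the largest raw count of the untreated-titled libraries equalled the smallest of the ETBF-titled libraries. Groups also did not overlap in 39% of the 195 tested entries, and no counting interval was computed for these small sums. The difference of mean log2 levels was 0.99, smaller than with miR-548o-3p, and rested on 72 counts, of which 29 were from miR-548u. These sums describe the libraries and carry no test.

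**Figure D5:**
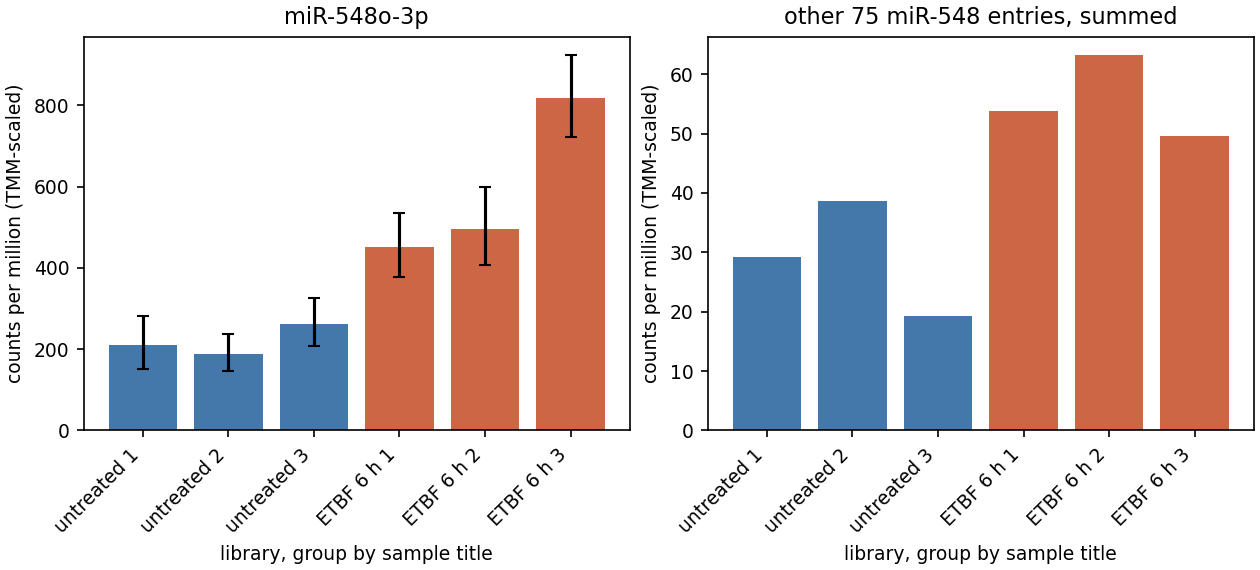
TMM-scaled CPM by library (horizontal axis, group by sample title) for miR-548o-3p, with 95% Poisson intervals as bars, and for the other 75 miR-548 entries summed, without intervals. The vertical scales differ, with miR-548o-3p at 188 to 818 CPM and the others together at 19.2 to 63.2 CPM.

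Other miRNAs derived from transposons were read from lists set beside the family. Relatives from the same MADE1 elements, miR-570, miR-579 and miR-603, had 5 entries with 1 count in all, for miR-579-5p in titled untreated replicate 1. Among these MADE1-derived entries and the family, miR-548o-3p alone passed 9 counts in a library. miRNAs derived from LINE-2, an older retrotransposon, had 13 entries with 42361 counts, mostly miR-151a-3p. Of their 6 tested entries, 1 was higher in the ETBF-titled libraries and none lower, beside 10.8% higher and 3.59% lower over all tested entries, with a median log2 fold change of -0.10. The one that passed was miR-95-3p, with 7, 38 and 14 counts in the titled untreated and 60, 45 and 56 in the ETBF-titled libraries (log2 fold change 1.54, SE 0.33, edgeR adjusted p = 0.0157). miR-151a-3p (1.05, SE 0.35), miR-28-3p (0.11, SE 0.16), miR-151a-5p (-0.43, SE 0.27), miR-708-3p (-0.32, SE 0.40) and miR-708-5p (-0.34, SE 0.24) did not pass, with edgeR adjusted p of 0.0749, 0.629, 0.310, 0.590 and 0.426.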

How the data were processed

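Small RNA was sequenced from exosomes of HCT116 cells, from 100 ng total RNA each, per the labels' protocols. Trimmomatic, FastQC and featureCounts were used with genome build GRCh37.p5, per the submitters' processing notes; for versions, aligner, miRNA annotation and reads with several positions nothing is given in the sources used here. Values as deposited are whole-number counts per mature miRNA, not normalised. No label says that replicates were separate cultures, and the p-values then cover only the spread among these libraries, possibly technical. Replicate counts differed by more than sampling noise in each pair (chi-square over degrees of freedom 12.2 to 131.9).

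Entries were filtered with filterByExpr (minimum count 10), leaving 195 tested and 2380 untested, scaled by TMM (factors 0.776 to 1.19) and tested by the two-sided quasi-likelihood test of edgeR. SE was taken as the size of the log2 fold change divided by √F. CPM is counts over the TMM-scaled library size. Poisson and Clopper-Pearson intervals are at 95%. The members, lists and the rule for named entries were chosen with earlier results of these data known. The rule named tested members, the 10 with most counts, members with at least 3 counts in each library of a group, and related transposon-derived entries that were tested. The others named were chosen after their values were seen. They were miR-548ap-5p, miR-548s, miR-548v, miR-548p, miR-548aq-3p, miR-548o-5p, miR-1323, and the pair miR-199a-3p and miR-199b-3p. The members with identical sequences, miR-579-5p and the structural-RNA entries were also among them. Sequences and loci came from RefSeq (GRCh38.p14) and host genes from GENCODE release 29. Scripts were tested on simulated data. Versions were edgeR 4.0.16, DESeq2 1.42.0 and limma 3.58.1 in R 4.3.3.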

Additional observations from a re-analysis of the deposited data

How the results depend on the processing

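miR-548o-3p stayed higher in the ETBF-titled libraries and past the threshold in all 15 alternatives, with log2 fold changes of 1.10 to 1.57 and adjusted p up to 0.0113 (limma-voom). The alternatives were other normalisations, filter, tests, the replicate block, structural-RNA entries left out, identical sequences counted once and each library left out. It was the 1 member called in each. Except with no filter on low counts, where 13 members were tested, it was also the only 1 tested. The count of 28 calls over all entries was 51 with no filter on low counts and 17 to 59 with single libraries left out. Leaving out titled ETBF replicate 1 gave 59, and leaving out either titled ETBF replicate 3 or titled untreated replicate 3 gave 17. Its share of higher calls was 75.0%; it was 85.7% with upper-quartile scaling and 88.2% with structural-RNA entries left out, but 64.4% (38 higher, 21 lower) without titled ETBF replicate 1, and the cause was not tested. Pooled family levels differed by 0.99 on the log2 scale without miR-548o-3p, against 1.34 with it, and by 1.10 to 1.46 with single libraries left out. The 13 detected members became 4 when 3 or more counts in a library were required, and 11 to 13 with single libraries left out. Counting identical sequences once removed only members at 0, so it could not change these values.

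With the replicate number as a block there were 38 calls, and miR-548o-3p had a log2 fold change of 1.42 (SE 0.13, edgeR adjusted p = 8.64e-05). Libraries with the same number correlated at 0.05 to 0.18 in their deviations from the group means. One of these correlations missed the 0.1 required of every pair, and no label says that a number marks a shared culture or day, so the block was kept as an alternative. That 5 of 6 libraries correlated best with their own number is at most a hint of pairing from the data, not from the design. The 6 comparisons reuse the same correlations, so they are not independent. At this depth 75 of 76 members could not be tested with the default filter.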
